A study of Mus musculus with 11 samples.

Results

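The ATR inhibitor response of Cas9 control melanoma cells was read from 4 RNA-seq libraries of the mouse line B16F10, a pigmented melanoma line grown in culture. Both groups carried Cas9 without a knockout and were labelled genotype WT; cells were given DMSO, the solvent, or 5 µM AZD6738, an inhibitor of the kinase ATR (ATRi), for 48 h. Every gene with a mean of at least 0.5 FPKM (fragments per kilobase of gene scaled to each library's counted fragments) over these 4 libraries entered the comparison, which left 11338 of the 14528 listed genes. The labels call the 2 libraries of each group biological replicates but do not say whether they were separate cultures, nor whether the Cas9 control line is 1 clone, so p-values reflect how far these libraries differ, which may be technical. The wider study also treated 2 B16F10 lines labelled as knockouts of the uracil glycosylase gene Ung, ΔUNG and ΔUNG_2, with DMSO or 5 µM AZD6738 for 48 h; they share the estimate of spread in the fit and enter the last comparison.

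ATR is the kinase that senses single-stranded DNA at stalled replication forks. With its partner ATRIP it activates CHK1, which restrains origin firing, keeps up ribonucleotide reductase and holds cells back from mitosis until replication is finished. Cells that divide with unfinished replication can form micronuclei, and DNA in the cytosol can be sensed by cGAS and STING, which switch on type I interferon genes. DNA breaks also stabilise p53, which drives arrest and death genes. These are textbook roles and were not measured here.

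The libraries held 18318111 and 18383816 counted fragments under DMSO and 28464757 and 27377171 under ATRi, so the ATRi libraries were the deeper ones. A count of 3 fragments in a gene of 1 kb corresponded to 0.164 and 0.163 FPKM under DMSO and to 0.105 and 0.110 FPKM under ATRi, a floor that covers counting error only. A single listed gene of 57 bases, Gm23935, took 10.3% to 25.9% of the summed FPKM, with both the lowest and the highest share in an ATRi library. Of 10 melanocyte markers 9 exceeded 1 FPKM in every library and the tenth, Oca2, in the ATRi libraries only, and their summed level was 7477 to 7729 FPKM under DMSO and 7937 to 8390 FPKM under ATRi. Of the markers of other cell types, 1 of 8 for T and NK cells, 2 of 10 for macrophages, 5 of 7 for fibroblasts, 2 of 5 for endothelial cells, 1 of 6 for keratinocytes and 0 of 5 for B cells were listed. The summed level of the T and NK marker was 0.594 to 0.839 FPKM under DMSO and 0.408 to 0.499 under ATRi, that of the macrophage markers 0.871 to 1.16 and 0.583 to 0.614 (Cd14 was at 0 in all 4 libraries), and that of the fibroblast markers 2.06 to 2.23 and 1.61 to 1.83. The endothelial and keratinocyte sums stayed at or under 0.256 FPKM in every library.

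The response was broad and mostly shallow. In a limma fit on log2(FPKM + 0.5), with Benjamini-Hochberg adjustment over all 11338 genes and a threshold of 0.05, 1931 genes rose (17.0% of those tested) and 1910 fell (16.8%), 33.9% together. Most changes were small: 3372 of the 3841 genes that passed moved less than 2-fold. At least 2-fold, 305 genes rose (2.69%) and 164 fell (1.45%). At least 4-fold, 37 rose and 7 fell. The median log2 fold change was -0.0043, with quartiles at -0.23 and 0.23. In 3842 of the 11338 tested genes both ATRi libraries lay above both DMSO libraries, and in 3900 both lay below. Groups that do not overlap are therefore common and set no gene apart. Shorter genes lay more often among the rises and longer genes among the falls: with the tested genes in 5 equal bins of length, in the shortest (56 to 2098 bases) 17.8% rose and 10.1% fell, and in the longest (7376 to 41155 bases) 9.70% rose and 22.5% fell. These percentages are the background against which the gene lists are read, and fold changes on this scale understate those of genes near 0.5 FPKM. Of the tested genes 255 had a DMSO mean under 0.5 FPKM and so passed the filter only through ATRi; 137 of them rose, 92 at least 2-fold. Another 157 passed only through DMSO, of which 69 fell, 29 at least 2-fold. Such genes had to differ to be tested, and those that rose or fell are pointed out where they sit in a list. Leaving out the first or the second DMSO library lowered the count of 3841 to 2460 or 2232.

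**Figure D1:**
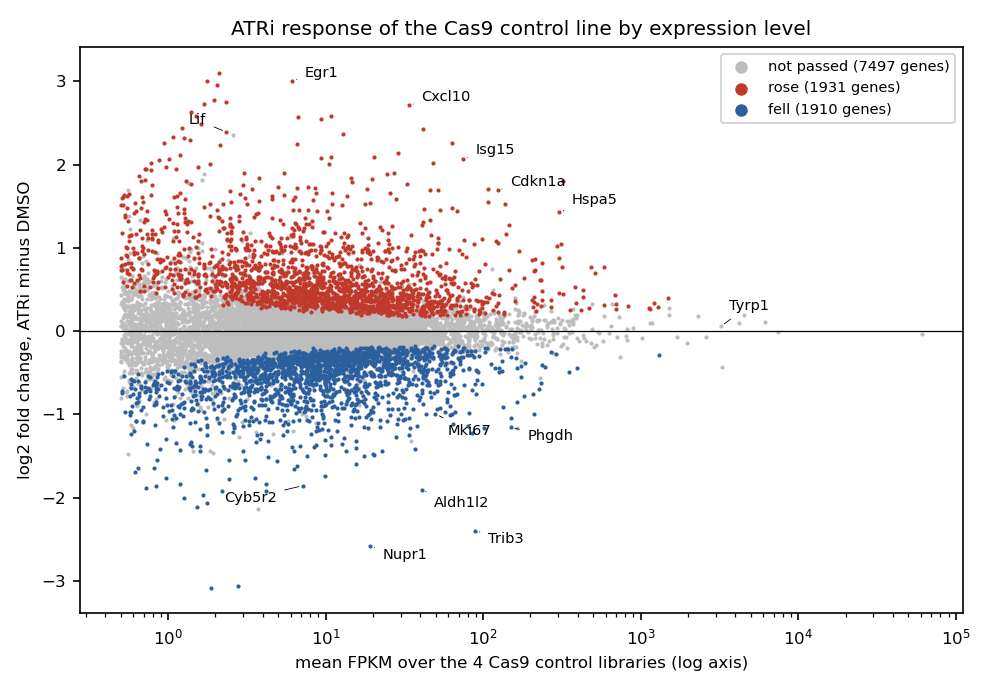
Log2 fold change (ATRi minus DMSO, on log2(FPKM + 0.5)) of each of the 11338 genes tested against its mean FPKM over the 4 libraries on a log axis, with genes that rose in red (1931), fell in blue (1910) and did not pass in grey. The extremes are alike (3.10 and -3.08), but more genes rose at least 4-fold (37) than fell that far (7). Genes from under 1 to over 100 FPKM take part in both directions.

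**Figure D2:**
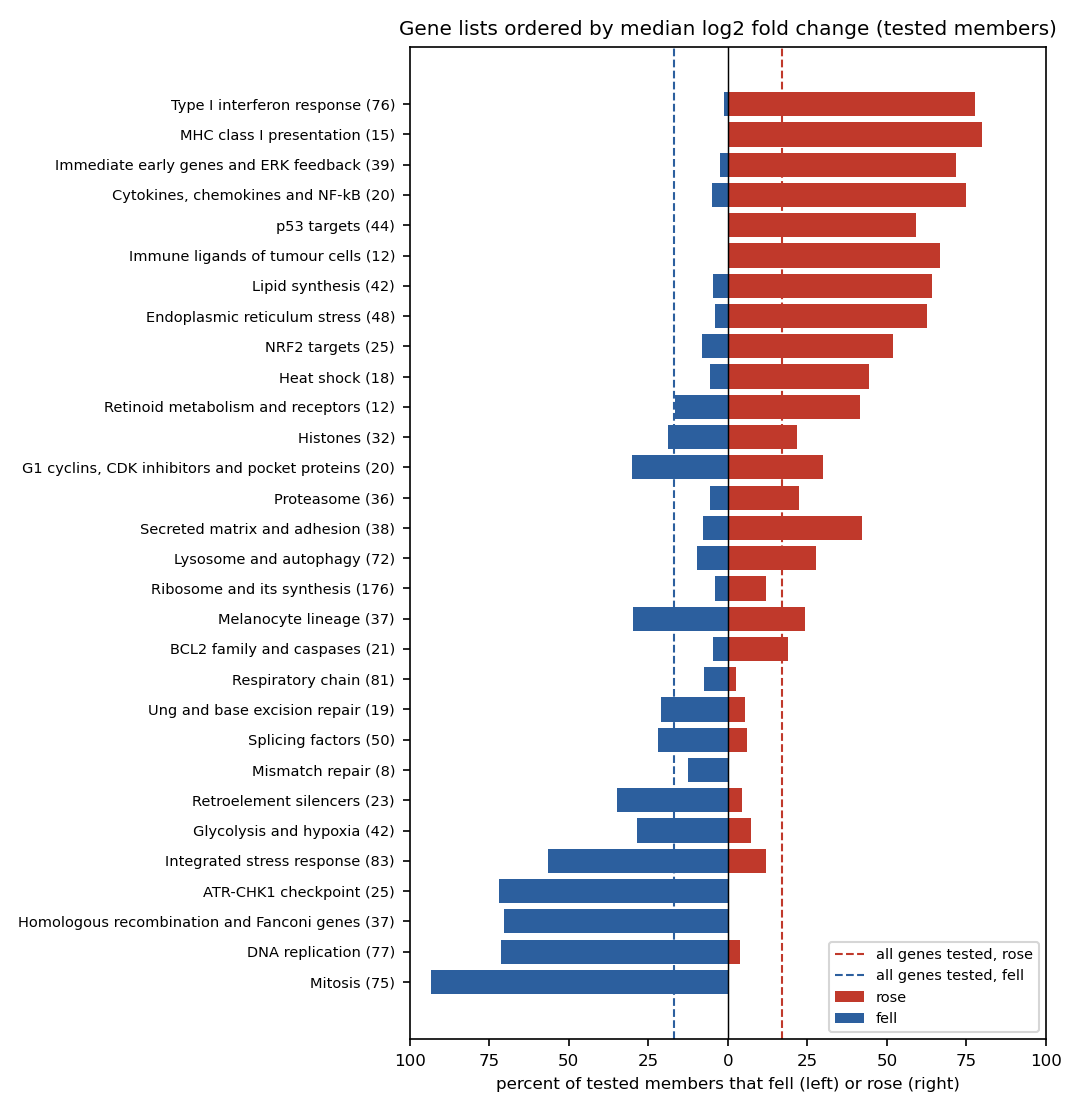
Percent of the tested members of 30 gene lists that rose (right) or fell (left) in the Cas9 control line, ordered by median log2 fold change, with the number tested in brackets and dashed lines at 17.0% and 16.8%, the shares over all genes tested. Mitosis, replication, recombination and checkpoint lists lie at the bottom and interferon, antigen presentation and ERK feedback lists at the top.

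Genes of the targeted pathway fell at the RNA level. In bulk RNA a changed share of cells in each cell cycle phase and less RNA per cell cannot be told apart. The same limit applies to the repair and replication lists below. Of 25 tested genes of the ATR-CHK1 checkpoint (27 in the list), 0 rose and 18 fell (72%), with a median log2 fold change of -0.42. Chek1, the effector kinase of ATR, stood at 11 and 10.6 FPKM under DMSO and 5.03 and 5.76 FPKM under ATRi, a log2 fold change of -0.94 ± 0.095 (SE; adjusted p = 0.000103, limma). Clspn, the adaptor that brings CHK1 to ATR, had 8.05 and 7.89 FPKM under DMSO and 4.68 and 4.33 FPKM under ATRi (-0.76 ± 0.11, adjusted p = 0.000758). In both genes every ATRi library lay below every DMSO library. Cdc25b, a phosphatase that activates CDK1 and is a target of CHK1, had 21.1 and 20.8 FPKM under DMSO and 11.1 and 9.94 FPKM under ATRi (-0.96 ± 0.075), the lower values again all under ATRi. Atr itself had 2.01 and 2.14 FPKM under DMSO and 1.57 and 1.26 FPKM under ATRi, with adjusted p = 0.0357 for a change of -0.43. Its groups did not overlap, but the call was lost without DMSO replicate 1 (adjusted p = 0.0961), DMSO replicate 2 (0.154) or ATRi replicate 2 (0.174), when only the 4 libraries compared were fitted (0.0769) and after scaling to an equal FPKM sum (0.123). Leaving out 1 library gave 12 to 16 falls in the list, and 1 gene rose without ATRi replicate 2.

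Genes for repair by homologous recombination and of the Fanconi pathway, which repairs DNA crosslinks, moved the same way. Of 37 tested, 0 rose and 26 fell, with a median of -0.51. Among the 22 recombination genes 18 fell and among the 15 Fanconi genes 8 fell. Rad51c, a subunit of a recombinase paralogue complex, had 5.67 and 5.67 FPKM under DMSO and 2.16 and 2.08 FPKM under ATRi (-1.24 ± 0.10, adjusted p = 2.69e-05). Fancd2, the protein that is ubiquitinated at crosslinks, had 13.5 and 13 FPKM under DMSO and 5.71 and 5.47 FPKM under ATRi (-1.18 ± 0.093). In both genes the DMSO libraries lay above the ATRi libraries. Blm, a helicase that dissolves recombination intermediates, and Brip1, a BRCA1-bound helicase, fell (-0.86 and -1.08 on the log2 scale). In base excision repair, by contrast, 1 of 19 rose (2 without ATRi replicate 1) and 4 fell (1 after scaling to an equal FPKM sum), counts too small to set against the background. Neil3, a glycosylase that acts at replication forks, fell (4.7 and 4.7 FPKM under DMSO and 2.04 and 1.73 FPKM under ATRi; -1.13 ± 0.15), while Ung, the gene the other lines are labelled as lacking, had 2.86 and 2.48 FPKM under DMSO and 2.56 and 3.0 FPKM under ATRi and did not pass (0.049 ± 0.23, adjusted p = 0.892). Mismatch repair had 0 rises and 1 fall in 8 genes, the fall being the exonuclease gene Exo1 (-0.49).

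Genes of the replication machinery fell in every role. Of 77 tested genes, 3 rose and 55 fell (71.4%), with a median of -0.55; leaving out 1 library gave 46 to 54 falls. Among origin licensing and firing genes 20 of 25 fell. Cdc45, part of the replicative helicase, had 20.6 and 19.8 FPKM under DMSO and 10.7 and 10.7 FPKM under ATRi (-0.89 ± 0.086). Recql4, a helicase needed for origin firing, had 8.11 and 8.19 FPKM under DMSO and 3.17 and 3.39 FPKM under ATRi (-1.19 ± 0.12). Mcm5, a subunit of the helicase ring, fell (-0.72). Each of these genes was lower in both ATRi libraries than in either DMSO library. Of 21 polymerase, clamp and ligase genes 15 fell, among them Pola1, the catalytic subunit that starts new strands (9.25 and 10.6 FPKM under DMSO and 5.27 and 4.86 FPKM under ATRi), and Rfc4, a clamp loader subunit (38.4 and 40.5 FPKM under DMSO and 18.1 and 19.3 FPKM under ATRi). An exception was Pold4, the smallest subunit of polymerase δ, which rose (13.6 and 12.7 FPKM under DMSO and 22.9 and 28.1 FPKM under ATRi; 0.92 ± 0.12, adjusted p = 0.000527). In nucleotide supply the list divided: 8 of 16 fell and 2 rose. Rrm2, the regulatory subunit of ribonucleotide reductase, had 104 and 114 FPKM under DMSO and 53.5 and 55.9 FPKM under ATRi (-0.99 ± 0.089), and Dut, the enzyme that removes dUTP, fell (-0.55). Cad, which starts pyrimidine synthesis, rose (17.5 and 19.6 FPKM under DMSO and 28.3 and 28.2 FPKM under ATRi; 0.59 ± 0.076), and the purine synthesis gene Gart rose by 0.27 (adjusted p = 0.0284). The call of Gart was lost without DMSO replicate 1 (adjusted p = 0.0872), DMSO replicate 2 (0.129) or ATRi replicate 2 (0.141) and after scaling to an equal FPKM sum (0.310). Among the E2F factors and cyclins E and A, 12 of 15 fell and 0 rose. Ccna2, cyclin A2, had 39.2 and 41.4 FPKM under DMSO and 20.8 and 19.1 FPKM under ATRi, and the E2F repressors E2f7 and E2f8 fell (-0.72 and -1.09). Ccne2, cyclin E2, fell (-0.83), whereas Ccne1, cyclin E1, did not pass (21.8 and 23.6 FPKM under DMSO and 20.3 and 21.9 FPKM under ATRi; adjusted p = 0.365).

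E2F factors bind a short GC-rich site, and the promoters of 3 members that fell are shown to place that site. The letters searched were TTT, then 2 bases each G or C, then CGC, on both strands of the window from 250 bases before to 50 bases after the start (RefSeq, GRCm38.p6). Capitals mark the match.
Pola1, chrX:93632261-93632318, minus strand: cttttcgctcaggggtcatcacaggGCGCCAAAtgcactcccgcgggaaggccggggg
Mcm5, chr8:75109335-75109392, plus strand: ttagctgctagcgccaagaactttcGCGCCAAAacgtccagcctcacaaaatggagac
E2f7, chr10:110745216-110745273, plus strand: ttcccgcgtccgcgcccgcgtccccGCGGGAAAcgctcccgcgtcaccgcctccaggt
Such a match was present in 22 of the 65 replication genes with a window (33.8%), 19 of which fell. It was present in 435 of the 8542 tested genes with a window (5.09%) and in 744 of all 32851 windows (2.26%). A match is a description of the letters and not a shown binding site.

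The mitotic programme fell almost whole. Of 75 tested mitosis genes, 0 rose and 70 fell (93.3%), 20 of them at least 2-fold, with a median of -0.80; leaving out 1 library gave 64 to 67 falls. In bulk RNA a smaller share of cells in G2 and mitosis and less of these RNAs per cell cannot be told apart. All 13 kinases and B cyclins fell, 20 of 22 spindle motors and organisers, all 22 kinetochore and centromere genes and 15 of 18 genes for chromosome structure, anaphase and mitotic transcription. Plk1, the kinase that drives entry into and passage through mitosis, had 59 and 59.9 FPKM under DMSO and 32.5 and 35.8 FPKM under ATRi (-0.79 ± 0.079). Ccnb1, cyclin B1, had 39 and 43 FPKM under DMSO and 22.8 and 23.8 FPKM under ATRi (-0.80 ± 0.081). Neither gene's groups overlapped. Sgo1, which guards cohesion at centromeres, had 14.1 and 14.5 FPKM under DMSO and 5.91 and 5.07 FPKM under ATRi (-1.31 ± 0.11, adjusted p = 3.76e-05), and Nuf2, of the outer kinetochore, fell (-1.19). Kif15, a spindle motor (-1.07), Dlgap5, a spindle stabiliser (-1.07), and Fbxo5, the inhibitor of the anaphase-promoting complex (-1.15), fell as well. Mki67, the proliferation antigen that coats mitotic chromosomes, had 65.7 and 67.5 FPKM under DMSO and 35.6 and 30.8 FPKM under ATRi.

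Many mitotic promoters hold the cell cycle genes homology region (CHR), read by the DREAM and MuvB complexes, whose core was searched as TTTGAA on both strands. The promoters of 3 members that fell are printed with the match in capitals (RefSeq, GRCm38.p6).
Cenpn, chr8:116921706-116921739, plus strand: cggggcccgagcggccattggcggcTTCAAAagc
Ncapg2, chr12:116405393-116405435, plus strand: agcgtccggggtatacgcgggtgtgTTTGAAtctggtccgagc
Smc2, chr4:52439051-52439106, plus strand: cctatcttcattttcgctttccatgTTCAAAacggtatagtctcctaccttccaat
Cenpn, a centromere protein, had 12.9 and 12.9 FPKM under DMSO and 5.13 and 5.61 FPKM under ATRi (-1.19 ± 0.08), and the condensin genes Ncapg2 and Smc2 fell (-1.08 and -1.07). The core was present in 39 of the 64 mitosis genes with a window (60.9%), 37 of which fell, in 1202 of the 8542 tested genes with a window (14.1%) and in 5878 of all 32851 windows (17.9%). It is a short motif, so many windows hold it.

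G1 regulators did not share that direction. Of 20 tested G1 cyclins, CDK inhibitors and pocket proteins 6 rose and 6 fell, and the rises came to 3 to 6 when 1 library was left out (3 without DMSO replicate 1, DMSO replicate 2 or ATRi replicate 1) and to 2 after scaling to an equal FPKM sum. Ccnd1, cyclin D1, rose from 36.2 and 37.2 to 99.1 and 102 FPKM (1.44 ± 0.07, adjusted p = 4.03e-06), with no overlap. Rbl1, the pocket protein p107, fell (16.4 and 17.3 FPKM under DMSO and 9.16 and 8.14 FPKM under ATRi; -0.93 ± 0.11), and the CDK inhibitors Cdkn1b and Cdkn2c fell (-0.54 and -0.63). Histone genes were mixed as well, with 7 of 32 tested (47 in the list) higher and 6 lower, among the 7 a pair that passed the filter only through ATRi and among the 6 a single gene that passed only through DMSO; 4 were higher without DMSO replicate 1 and 3 without ATRi replicate 2. Hist1h2bc rose (9.26 and 11.6 FPKM under DMSO and 45.7 and 48.8 FPKM under ATRi; 2.13 ± 0.14), as did the linker histone Hist1h1c (1.90), while the variant H2afz, a proliferation-linked gene, fell (-0.78). Most histone messages lack a poly(A) tail and the members share sequence, and neither the RNA selection nor the handling of shared reads is given in the sources used here, so their counts are uncertain.

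Targets of p53 rose. Of 44 tested (52 in the list), 26 rose (59.1%), 13 of them at least 2-fold, and 0 fell, with a median of 0.53; leaving out 1 library gave 22 to 27 rises, and 1 member fell without ATRi replicate 2 or after scaling to an equal FPKM sum. Trp53 itself rose by 0.37 (39.1 and 36.7 FPKM under DMSO and 52.7 and 45.9 FPKM under ATRi; adjusted p = 0.00551), a call lost after scaling to an equal FPKM sum (adjusted p = 0.172). Among arrest genes 7 of 9 rose. Plk2, a kinase induced by p53, had 3.46 and 4.29 FPKM under DMSO and 18.2 and 15.9 FPKM under ATRi (2.01 ± 0.13, adjusted p = 1.24e-05). Ccng1, cyclin G1, had 84.3 and 87.4 FPKM under DMSO and 212 and 204 FPKM under ATRi (1.27 ± 0.066), and Cdkn1a, encoding p21, had 60.9 and 55.6 FPKM under DMSO and 193 and 187 FPKM under ATRi. All 3 genes were higher in both ATRi libraries. Of the 26 rises 2 were in genes that passed the filter only through ATRi. Of 11 death genes 9 rose. Phlda3, an inhibitor of AKT signalling, had 57.5 and 51.4 FPKM under DMSO and 163 and 159 FPKM under ATRi (1.56 ± 0.10). Bbc3, encoding PUMA, rose by 1.00, Bax by 0.53, the death receptor gene Tnfrsf10b by 1.04, and Aen, a nuclease of apoptosis, by 0.99. In feedback on p53, 4 of 8 rose, with Mdm2, the ligase that degrades p53, at 31.9 and 33.3 FPKM under DMSO and 67.5 and 57.3 FPKM under ATRi. Among metabolism, autophagy and repair targets 6 of 16 rose and 10 did not pass. Of the BCL2 family and caspases beyond these targets, 4 of 21 rose (19.0%), near the background of 17.0%, and 2 after scaling to an equal FPKM sum. A single member fell (4.76%), a lower share than the 16.8% over all genes tested. Bcl2l1, encoding the survival protein BCL-XL, rose (17.7 and 16.7 FPKM under DMSO and 27.2 and 29.4 FPKM under ATRi; 0.70 ± 0.10), as did the inflammatory caspase gene Casp1 (0.0729 and 0.145 FPKM under DMSO and 1.2 and 1.37 FPKM under ATRi; 1.55 ± 0.23), which passed the filter only through ATRi, while Casp2 fell (-0.54). A full p53 response element was found in 0 of the 8542 windows of tested genes and 3 of all 32851, so these short windows say nothing on it.

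**Figure D3:**
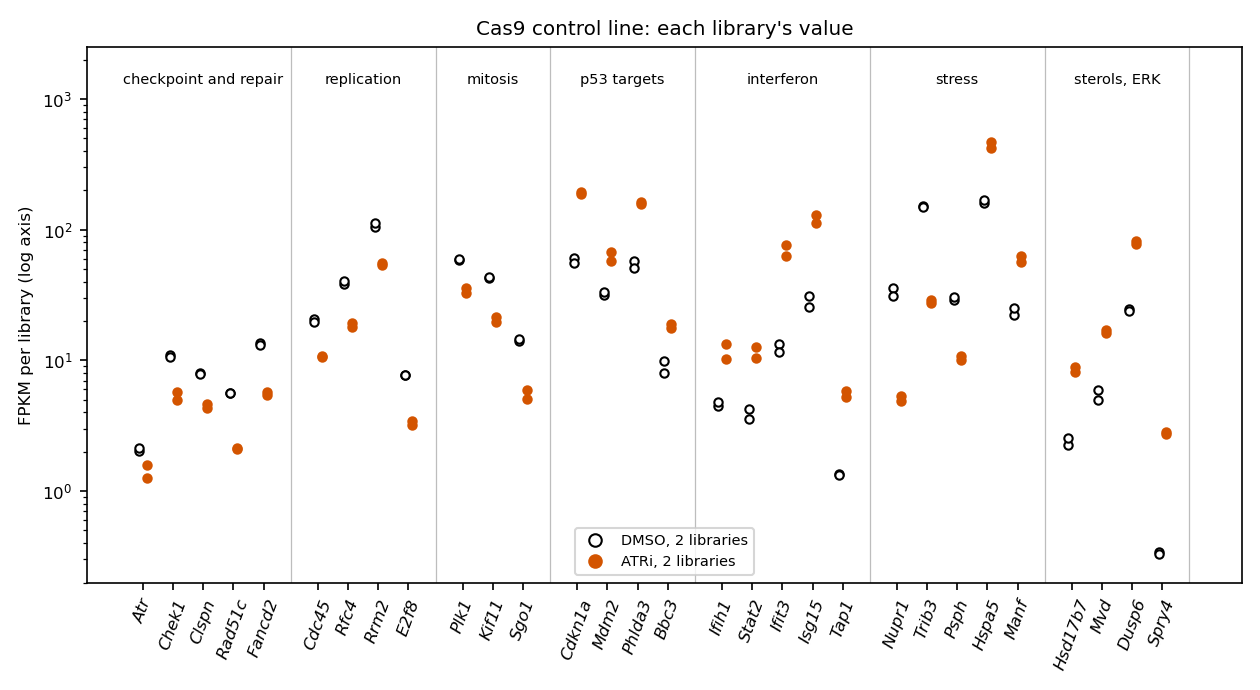
FPKM in each library, on a log axis, of 30 genes of 7 programmes in the Cas9 control line, with open circles for the 2 DMSO and filled circles for the 2 ATRi libraries. The pairs of a group lie close together compared with the gap between groups, except at Atr, where the gap is small.

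Interferon genes rose, most of all the antiviral effectors. Of 76 tested genes (84 in the list), 59 rose (77.6%), 39 of them at least 2-fold, and 1 fell, with a median of 1.02; leaving out 1 library gave 49 to 58 rises. Of the 3 members that passed the filter only through ATRi 1 rose. The fall was Jak1, a kinase of the receptor (-0.28, adjusted p = 0.0168), a call lost without DMSO replicate 2 (adjusted p = 0.115) or ATRi replicate 2 (0.0907) and after scaling to an equal FPKM sum (0.138). Among 5 receptor genes 3 rose by small amounts, with a median of 0.33, a count that was 1 without DMSO replicate 2 and 0 after scaling to an equal FPKM sum. Among 12 nucleic acid sensors and adaptors 7 rose. Ifih1, the RNA sensor MDA5, had 4.47 and 4.81 FPKM under DMSO and 13.3 and 10.3 FPKM under ATRi (1.25 ± 0.13), Ddx58, the RNA sensor RIG-I, rose by 1.25, and Dhx58, their regulator LGP2, by 1.73. Adar, an RNA editing enzyme that limits MDA5, rose by 0.78. Among 11 JAK-STAT and IRF genes 6 rose. Stat2, part of the complex that carries the interferon signal, had 4.26 and 3.58 FPKM under DMSO and 12.7 and 10.5 FPKM under ATRi (1.45 ± 0.12, adjusted p = 4.02e-05), and Usp18, which dampens the receptor, rose by 1.62. The largest share was among antiviral effectors, 43 of 48, with 32 at least 2-fold and a median of 1.17. Isg15, a ubiquitin-like modifier, had 31.1 and 25.8 FPKM under DMSO and 113 and 129 FPKM under ATRi. Irgm1, an interferon-induced GTPase, had 9.44 and 7.49 FPKM under DMSO and 32.5 and 29.9 FPKM under ATRi (1.83 ± 0.11), and Ifit3, which binds viral RNA, had 13.4 and 11.7 FPKM under DMSO and 76.7 and 63.5 FPKM under ATRi (2.43 ± 0.12). In each the ATRi values lay above the DMSO values. Ifit3 and Ifit3b are near copies, so how their reads were divided is uncertain.

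The interferon-stimulated response element, a motif of interferon-induced genes, was searched by its consensus on both strands, and 3 promoters of effectors that rose are printed with the match in capitals (RefSeq, GRCm38.p6).
Isg15, chr4:156200850-156200909, minus strand: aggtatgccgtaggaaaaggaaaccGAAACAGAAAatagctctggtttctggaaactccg
Ifit3, chr19:34583382-34583441, plus strand: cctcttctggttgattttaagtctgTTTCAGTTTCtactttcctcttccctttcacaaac
Ifit3b, chr19:34607778-34607837, plus strand: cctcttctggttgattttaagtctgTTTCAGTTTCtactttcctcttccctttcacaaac
The 60 bases around the match are identical in Ifit3 and Ifit3b. The element was present in 24 of the 62 interferon genes with a window (38.7%), 23 of which rose, in 312 of the 8542 tested genes with a window (3.65%) and in 1131 of all 32851 windows (3.44%).

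Antigen presentation and immune ligands rose beside it. Of 15 tested MHC class I presentation genes (19 in the list) 12 rose and 0 fell (median 0.79). B2m, the light chain, had 369.6 and 346 FPKM under DMSO and 621 and 597 FPKM under ATRi, and Tap1, a peptide transporter subunit, had 1.35 and 1.33 FPKM under DMSO and 5.84 and 5.21 FPKM under ATRi. Of 20 tested cytokine, chemokine and NF-kB genes (39 in the list) 15 rose, 3 of them in genes that passed the filter only through ATRi, and 1, Nfkb1, fell (-0.33, adjusted p = 0.0177; adjusted p = 0.0719 without DMSO replicate 1, 0.0878 without DMSO replicate 2, 0.0871 without ATRi replicate 2 and 0.122 after scaling to an equal FPKM sum). Without DMSO replicate 1, 9 rose. Lif, a cytokine of the IL-6 family, had 0.351 and 0.475 FPKM under DMSO and 3.99 and 4.58 FPKM under ATRi (2.39 ± 0.17, adjusted p = 1.71e-05), and its relative Il11 had 0.38 and 0.243 FPKM under DMSO and 1.97 and 2.0 FPKM under ATRi (1.62 ± 0.15). Both passed the filter only through ATRi. Nfkb2, the precursor of the non-canonical NF-kB subunit, rose by 0.98. Of 12 tested immune ligands (30 in the list) 8 rose, 2 of them in genes that passed only through ATRi, and 0 fell; 5 rose without DMSO replicate 2, without ATRi replicate 1 or after scaling to an equal FPKM sum. Lgals9, galectin-9, a ligand of the inhibitory T cell receptor TIM-3, had 21.5 and 21.5 FPKM under DMSO and 114 and 97.2 FPKM under ATRi (2.26 ± 0.15). Cd274, encoding PD-L1, had 1.9 and 2.72 FPKM under DMSO and 5.18 and 4.3 FPKM under ATRi (0.91 ± 0.17, adjusted p = 0.00368). H60b and Ulbp1 (the latter passing only through ATRi), ligands of the activating NK receptor NKG2D, rose by 1.13 and 0.81 on the log2 scale.

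The integrated stress response, the set of genes driven by ATF4 when amino acids are short or the endoplasmic reticulum is stressed, fell. Of 83 tested genes (87 in the list) 10 rose and 47 fell (56.6%), with a median of -0.39; leaving out 1 library gave 38 to 42 falls and 4 to 8 rises, and scaling to an equal FPKM sum gave 3 rises. Of the 10 rises 1 was in a gene that passed the filter only through ATRi. Among factors and regulators 13 of 21 fell. Nupr1, a stress-induced chromatin protein, had 35.6 and 31.1 FPKM under DMSO and 4.92 and 5.35 FPKM under ATRi (-2.58 ± 0.10, adjusted p = 1.93e-06), and Trib3, a pseudokinase that restrains ATF4, had 152 and 149.6 FPKM under DMSO and 27.5 and 28.9 FPKM under ATRi. Atf4 had 253 and 266 FPKM under DMSO and 144 and 164 FPKM under ATRi (-0.75 ± 0.085), and Cebpg, a partner of ATF4, fell (-1.48). In all 4 genes the ATRi libraries were lower. Of 14 serine and one-carbon enzymes 11 fell, including Psph, the last step of serine synthesis (28.9 and 30.8 FPKM under DMSO and 10.8 and 10 FPKM under ATRi; -1.47 ± 0.074), Phgdh, the first step (211 and 203 FPKM under DMSO and 90.2 and 95 FPKM under ATRi), and Mthfd2, a mitochondrial folate enzyme (-1.16). Asns, asparagine synthetase, fell (-1.05). Of 20 cytosolic tRNA synthetases 14 fell, with Lars, for leucine, at 68.8 and 71.4 FPKM under DMSO and 37.8 and 35.9 FPKM under ATRi, whereas of 17 mitochondrial ones 2 rose and 2 fell. Those rises came to 0 when either DMSO library or ATRi replicate 1 was left out, the falls to 0 without DMSO replicate 2 and to 1 without DMSO replicate 1 or ATRi replicate 1, and both to 0 after scaling to an equal FPKM sum. Among 11 amino acid transporters 7 fell, and 4 when either DMSO library was left out. Eif2ak3, the kinase PERK that feeds this response, rose (5.92 and 6.91 FPKM under DMSO and 9.82 and 9.65 FPKM under ATRi; 0.57 ± 0.084).

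ATF4 acts through C/EBP-ATF response elements, searched as TTGCATCA on both strands; 3 members that fell are printed (RefSeq, GRCm38.p6), with the match in capitals.
Nupr1, chr7:126625548-126625605, minus strand: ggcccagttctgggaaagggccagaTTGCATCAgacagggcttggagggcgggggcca
Vldlr, chr19:27216795-27216852, plus strand: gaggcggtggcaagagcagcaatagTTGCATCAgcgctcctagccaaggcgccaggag
Chac1, chr2:119351024-119351081, plus strand: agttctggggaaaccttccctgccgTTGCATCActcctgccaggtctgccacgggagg
Vldlr, a lipoprotein receptor, and Chac1, which breaks down glutathione, fell (-1.78 and -1.42). Windows were on hand for 66 of the 83 members (79.5%). That is just under the 80% of a list asked for here, so the share over it is not read. The letters were present in 59 of the 8542 tested genes with a window (0.691%) and in 294 of all 32851 windows (0.895%).

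Chaperones of the endoplasmic reticulum went the other way from the ATF4 targets. Of 48 tested genes of the unfolded protein response (50 in the list) 30 rose (62.5%) and 2 fell, with a median of 0.37; 23 to 29 rose when 1 library was left out and 15 after scaling to an equal FPKM sum. Among chaperones and disulfide enzymes 15 of 19 rose. Hspa5, the chaperone BiP, had 159.5 and 170.2 FPKM under DMSO and 467 and 423 FPKM under ATRi (1.43 ± 0.084). Sdf2l1, its cofactor, had 31 and 35.6 FPKM under DMSO and 88.1 and 99.7 FPKM under ATRi (1.48 ± 0.10), and Manf, a secreted chaperone, had 22.3 and 25.1 FPKM under DMSO and 56.4 and 62.6 FPKM under ATRi (1.31 ± 0.085). No DMSO value reached an ATRi value in these genes. Xbp1, the factor spliced by IRE1, rose by 0.96. Of 20 degradation and export genes 10 rose, and 6 without DMSO replicate 1. The falls were Ero1l, an oxidase of disulfide formation (65.3 and 100.3 FPKM under DMSO and 43.2 and 36.9 FPKM under ATRi), whose 2 DMSO libraries lay far apart, and the sensor Atf6 (-0.46, adjusted p = 0.00895), whose call was lost without DMSO replicate 1 (adjusted p = 0.0665) or ATRi replicate 2 (0.0563).

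The endoplasmic reticulum stress element, bound by ATF6 and XBP1 with NF-Y, is a CCAAT box and a CCACG spaced apart, and 3 members that rose are printed with the whole element in capitals (RefSeq, GRCm38.p6).
Hspa5, chr2:34772000-34772068, plus strand: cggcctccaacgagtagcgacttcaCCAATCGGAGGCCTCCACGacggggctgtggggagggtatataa
Creld2, chr15:88819495-88819563, plus strand: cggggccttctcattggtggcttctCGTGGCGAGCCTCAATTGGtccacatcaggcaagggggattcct
Syvn1, chr19:6046507-6046575, plus strand: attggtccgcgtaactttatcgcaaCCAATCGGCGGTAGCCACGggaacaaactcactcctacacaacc
Creld2, a disulfide isomerase, rose by 1.06 and Syvn1, the ligase HRD1 of protein degradation, by 0.95. The element was present in 9 of the 42 members with a window (21.4%), 8 of which rose, in 19 of the 8542 tested genes with a window (0.222%) and in 39 of all 32851 windows (0.119%).

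Other stress lists held fewer calls. Of 18 heat shock genes, which take in the mitochondrial chaperone genes Hspa9, Hspd1 and Hspe1, 8 rose and 1 fell, and 5 rose when either DMSO library was left out or after scaling to an equal FPKM sum. The inducible Hspa1b, which shares sequence with its neighbour Hspa1a, had 1.46 and 1.38 FPKM under DMSO and 3.4 and 3.84 FPKM under ATRi (1.10 ± 0.21), and the constitutive Hspa8 rose by 0.77. No mitochondrial member was among the rises, and the fall was Hspa9, a chaperone of the mitochondrial matrix (284 and 279.8 FPKM under DMSO and 145 and 138 FPKM under ATRi; -0.99 ± 0.062). Of 25 targets of NRF2, the factor of the antioxidant response, 13 rose and 2 fell, and 6 rose after scaling to an equal FPKM sum. The falls were Slc7a11, the cystine transporter that is also an ATF4 target (8.84 and 11.2 FPKM under DMSO and 5.7 and 4.91 FPKM under ATRi), and Nfe2l2, encoding NRF2 (-0.22, adjusted p = 0.027). The call of Nfe2l2 was lost without DMSO replicate 1 (adjusted p = 0.142), DMSO replicate 2 (0.0790) or ATRi replicate 2 (0.106), with only the 4 libraries compared (0.0632), with no intensity trend (0.0532) and after scaling to an equal FPKM sum (0.195). The NRF2 motif, searched as TGACNNNGC on both strands, was present in 8 of 20 members with a window and in 16.9% of the tested genes with one.

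Sterol synthesis rose. Of 42 tested lipid genes (45 in the list) 27 rose (64.3%) and 2 fell, and 21 to 27 rose when 1 library was left out. Of the 27 rises 1 was in a gene that passed the filter only through ATRi. Of 26 genes of cholesterol synthesis and uptake 20 rose, 7 at least 2-fold, with a median of 0.77, against 7 of 16 for fatty acid synthesis and cholesterol export, 3 without ATRi replicate 1 or after scaling to an equal FPKM sum. Hsd17b7, an enzyme of late cholesterol synthesis, had 2.25 and 2.54 FPKM under DMSO and 8.87 and 8.12 FPKM under ATRi (1.64 ± 0.12). Mvd, which makes isopentenyl pyrophosphate, had 5.93 and 4.97 FPKM under DMSO and 16.2 and 17.1 FPKM under ATRi (1.53 ± 0.088). Both genes were higher in both ATRi libraries. Fasn, fatty acid synthase, rose by 0.93. The falls were Insig2, which holds back the sterol factor SREBP (-0.28), and the desaturase gene Fads1 (-0.25). The call of Insig2 was lost without DMSO replicate 2 (adjusted p = 0.0682) and after scaling to an equal FPKM sum (0.0974), and that of Fads1 without DMSO replicate 1 (0.0952), DMSO replicate 2 (0.0842) or ATRi replicate 2 (0.102) and after that scaling (0.132). Hmgcs1, an early enzyme of the pathway, rose by 1.02 and was the only one of 32 members with a window to hold the sterol response element TCACCCCAC, here in capitals on the plus strand (RefSeq, GRCm38.p6; 59 of the 8542 tested genes with a window, 0.691%, and 181 of all windows, 0.551%). Windows covered under 80% of the list, so the share over it is not read.
Hmgcs1, chr13:119690189-119690247, plus strand: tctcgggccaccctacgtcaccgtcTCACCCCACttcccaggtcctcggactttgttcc
In glycolysis and the hypoxia response, where Aldoa is listed under 2 gene IDs, 3 of 42 rose and 12 fell, a count of falls that was 5 without DMSO replicate 2, 6 without ATRi replicate 2 and 18 without DMSO replicate 1. The rises came to 7 without DMSO replicate 2, where they outnumbered the falls, and to 1 after scaling to an equal FPKM sum. Hk1, a hexokinase, rose by 0.86 ± 0.087 (13.8 and 16.3 FPKM under DMSO and 26.3 and 28.7 FPKM under ATRi). Slc16a3, the lactate exporter MCT4, fell by -1.62 ± 0.27 (7.11 and 13.5 FPKM under DMSO and 2.26 and 3.56 FPKM under ATRi). Pdk1, a kinase that inhibits pyruvate dehydrogenase, fell as well (-0.93, and -1.34 to -0.53 over the alternatives).

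Genes switched on by growth factor signalling through ERK rose. Of 39 tested (42 in the list), 28 rose (71.8%) and 1 fell, with a median of 0.67; leaving out 1 library gave 21 to 25 rises. Among transcription factors 13 of 20 rose. Egr1, an early growth response factor, had 0.889 and 1.07 FPKM under DMSO and 10.9 and 11.8 FPKM under ATRi (3.01 ± 0.20, adjusted p = 1.24e-05), the largest fold in the list. Junb rose by 1.83 and Fosl1 by 1.42, both subunits of AP-1. Myc, a driver of growth, rose from 29.2 and 29.5 to 54.3 and 58.2 FPKM (0.93 ± 0.063). Of 19 genes listed as ERK feedback, not all of which restrain ERK, 15 rose and 0 fell. Dusp6, a phosphatase of ERK, had 24.8 and 23.7 FPKM under DMSO and 81.3 and 77.9 FPKM under ATRi (1.69 ± 0.081). Spry4, an inhibitor of receptor signalling, had 0.345 and 0.332 FPKM under DMSO and 2.82 and 2.73 FPKM under ATRi (1.97 ± 0.13), and Etv5, an ERK-driven factor, had 1.65 and 2.29 FPKM under DMSO and 11.9 and 10.5 FPKM under ATRi (2.25 ± 0.12). In each, both ATRi values exceeded both DMSO values. Of the 28 rises 5 were in genes that passed the filter only through ATRi, Spry4 and Fosl1 among them. The fall was Srf, the factor of serum response (-0.41, adjusted p = 0.0181), whose call was lost without DMSO replicate 1 (adjusted p = 0.0608), DMSO replicate 2 (0.0938) or ATRi replicate 1 (0.101).

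**Figure D4:**
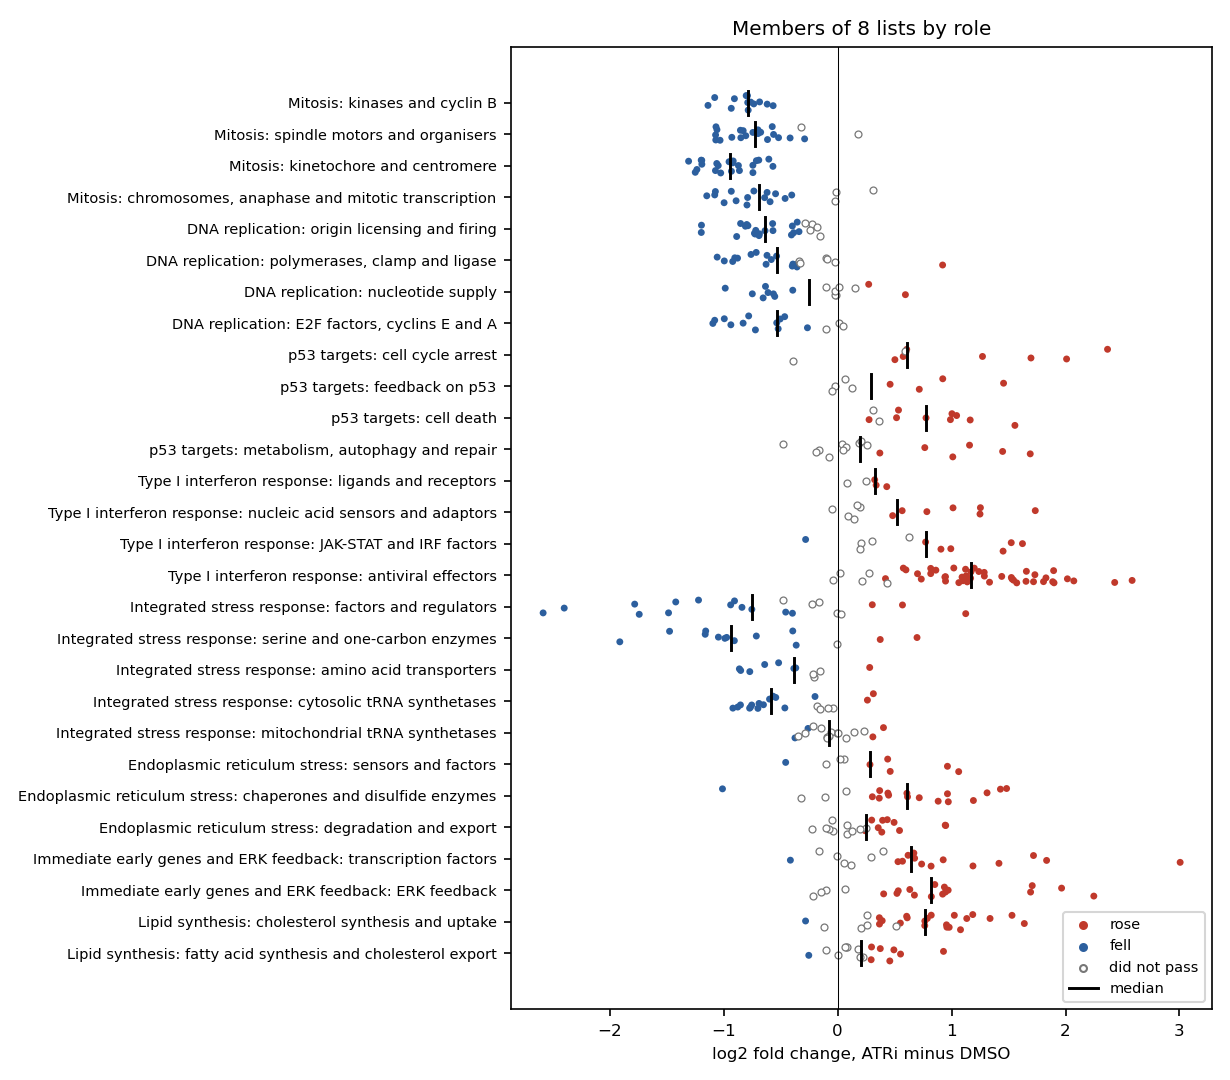
Log2 fold change (ATRi minus DMSO) of each tested member of 8 lists, 1 row a role, with filled points for genes that rose (red) or fell (blue), open points for those that did not pass and a bar at the median. Every kinetochore member lies left of 0 and fell, 43 of 48 antiviral effectors rose, and the median of cytosolic tRNA synthetases (-0.58) lies left of that of mitochondrial ones (-0.08).

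The melanocyte genes had no common direction. Of 37 tested lineage genes (44 in the list) 9 rose and 11 fell, with a median of 0.035; 5 rose without DMSO replicate 1 and 4 without DMSO replicate 2 or after scaling to an equal FPKM sum. Of the 9 rises 1, Oca2, passed the filter only through ATRi. Mitf, the master factor of the lineage, had 62.2 and 72.1 FPKM under DMSO and 75.6 and 69.8 FPKM under ATRi and did not pass (adjusted p = 0.281). Tyr, tyrosinase, fell (32 and 31.8 FPKM under DMSO and 22.2 and 24.5 FPKM under ATRi; -0.44 ± 0.10), while Mlph, of melanosome transport, rose (48.7 and 47.6 FPKM under DMSO and 106 and 101 FPKM under ATRi; 1.10 ± 0.063) and so did Cited1, a cofactor linked to pigment cells (1.36). Snai2, a factor of migration and lineage survival, fell (6.59 and 6.11 FPKM under DMSO and 2.38 and 2.11 FPKM under ATRi; -1.32 ± 0.15), and Kit, the receptor of stem cell factor, fell (-0.81). Of 12 tested retinoid genes (24 in the list) 5 rose and 2 fell, and 3 rose without DMSO replicate 2, ATRi replicate 1 or after scaling to an equal FPKM sum, while 1 fell without either DMSO library or after that scaling. Cyp26b1, which destroys retinoic acid, fell (2.14 and 1.8 FPKM under DMSO and 0.341 and 0.491 FPKM under ATRi; -1.43 ± 0.15) and passed the filter only through DMSO, and Rara, a retinoic acid receptor, rose (0.86). Of 38 tested matrix and adhesion genes (58 in the list) 16 rose, 3 of them in genes that passed only through ATRi, and 3 fell. Sparc, a matrix glycoprotein, had 195 and 209.8 FPKM under DMSO and 438 and 399 FPKM under ATRi (1.05 ± 0.072) and Mmp15, a membrane-bound protease, rose by 1.39, while Timp3, a protease inhibitor, fell (3.97 and 3.64 FPKM under DMSO and 1.45 and 1.39 FPKM under ATRi; -1.17 ± 0.12).

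Genes normally active in the 2-cell embryo entered the comparison only through their ATRi levels. Of 30 in the gene list 20 appeared in the deposited table and 10 passed the filter. All 10 had DMSO levels so low that they could pass only through the ATRi libraries, so their direction is fixed by the filter and no count is given. Zscan4f, a telomere-linked zinc finger gene, was at 0 and 0 FPKM under DMSO and 1.76 and 1.16 FPKM under ATRi, and Usp17le, a deubiquitinase gene, had 0.11 and 0.0548 FPKM under DMSO and 3.91 and 4.14 FPKM under ATRi. These genes belong to families of near-identical copies, and how the reads were divided among copies is not given in the sources used here. Of 23 genes that silence retroelements 8 fell and 1, Trim28, rose (0.21), with 5 falls without DMSO replicate 2 or ATRi replicate 2 or after scaling to an equal FPKM sum. The call of Trim28 (adjusted p = 0.0347) was lost without DMSO replicate 1 (adjusted p = 0.141), DMSO replicate 2 (0.118) or ATRi replicate 1 (0.145), with only the 4 libraries compared (0.0787), with no intensity trend (0.0663) and after scaling to an equal FPKM sum (0.508). Hells, a chromatin remodeller needed for DNA methylation, had 20.6 and 21.3 FPKM under DMSO and 9.94 and 9.8 FPKM under ATRi (-1.05 ± 0.083).

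Housekeeping machinery had no common direction, and in most of these lists both counts turned on single libraries. The proteasome list shares a rise with the immunoproteasome genes counted under MHC class I presentation. The largest log2 fold change, 0.93, is the same in both. Of 74 cytosolic ribosomal proteins 7 rose and 1 fell. The rises came to 3 without DMSO replicate 1, to 4 without DMSO replicate 2 or ATRi replicate 2 and to 15 without ATRi replicate 1, and the falls to 4 without ATRi replicate 2 and to 0 without any 1 of the others. Of 68 mitochondrial ribosomal proteins 5 rose and 6 fell. The rises came to 1, 2 and 3 without DMSO replicate 1, DMSO replicate 2 and ATRi replicate 2, and the falls to 12 without ATRi replicate 2 and to 2 when any 1 of the other libraries was left out. Of 81 respiratory chain genes 2 rose and 6 fell, 1 of them passing the filter only through DMSO. The median was 0.0011, and it was -0.063 without ATRi replicate 2 and -0.066 after scaling to an equal FPKM sum. The rises came to 8 without ATRi replicate 1, to 0 without DMSO replicate 2 and to 1 without either other library, and the falls to 3 without DMSO replicate 2, to 2 without ATRi replicate 1 and to 14 without ATRi replicate 2. Of 36 proteasome genes 8 rose and 2 fell, and 2 rose without DMSO replicate 1, 3 without DMSO replicate 2, 5 without ATRi replicate 2 and 1 after scaling to an equal FPKM sum. The falls came to 0 without DMSO replicate 2 and to 1 without either ATRi library or after that scaling. Among the falls, Psmc3ip (-0.83, adjusted p = 0.0152), is a recombination cofactor named for a proteasome subunit it binds, and its call was lost without DMSO replicate 1 (adjusted p = 0.0686), DMSO replicate 2 (0.0612) or ATRi replicate 1 (0.0913). Of 50 splicing factors 3 rose and 11 fell, with 1 rise and 5 falls when either DMSO library was left out, 6 falls without ATRi replicate 1, and 0 rises and 3 falls after scaling to an equal FPKM sum. Lysosome and autophagy genes had 20 rises and 7 falls in 72, with 11 rises when either DMSO library and 13 when ATRi replicate 1 was left out. The falls came to 2 to 4 when 1 library was left out, and scaling to an equal FPKM sum left 8 rises and 2 falls. Within that list Ctsf, a lysosomal protease, rose (3.48 and 3.47 FPKM under DMSO and 8.47 and 10.2 FPKM under ATRi; 1.30 ± 0.14), as did Cd68, a lysosomal membrane protein (1.36).

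Several of the largest changes by fold lay outside these lists. Csn3, which encodes a milk casein, had 0.145 and 0.144 FPKM under DMSO and 3.27 and 2.97 FPKM under ATRi (2.49 ± 0.18). Cyb5r2, a cytochrome b5 reductase, was at 12.4 and 10.7 FPKM under DMSO and 2.52 and 3.14 FPKM under ATRi (-1.86 ± 0.12), and Tenm4, a teneurin cell surface protein, fell as well (3.21 and 2.63 FPKM under DMSO and 0.505 and 0.632 FPKM under ATRi; -1.67 ± 0.15). Matn3, a matrilin of cartilage matrix, had 5.04 and 6.5 FPKM under DMSO and 1.39 and 1.27 FPKM under ATRi (-1.77 ± 0.13), and Angptl6, a secreted angiopoietin-like protein, had 8.14 and 5.64 FPKM under DMSO and 0.999 and 1.99 FPKM under ATRi (-1.92 ± 0.25). None of these genes' groups overlapped, and Csn3 passed the filter only through ATRi. Bglap, osteocalcin, one of a cluster of near copies whose reads may be shared, had 0.265 and 0.616 FPKM under DMSO and 3.41 and 4.31 FPKM under ATRi (2.23 ± 0.50, adjusted p = 0.00805), a call lost without DMSO replicate 1 (adjusted p = 0.0542); it too passed only through ATRi. Of 234 long intergenic noncoding RNAs 21 rose and 23 fell, and of 152 antisense RNAs 17 rose and 13 fell, lower shares than in the 10175 protein-coding genes, where 1819 rose and 1788 fell. Among noncoding genes Gm44658, which passed only through ATRi, rose (0.171 and 0.171 FPKM under DMSO and 2.15 and 2.01 FPKM under ATRi; 1.94 ± 0.17) and Platr16 fell (-1.92). Gm10687 rose too (1.06 and 0.572 FPKM under DMSO and 2.67 and 3.08 FPKM under ATRi; 1.38 ± 0.19), but it overlaps the start of Mcam on the opposite strand, and the sources used here do not say whether the counting used strand, so its reads and those of Mcam cannot be told apart.

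The response was then set against that of the 2 lines labelled as Ung knockouts, each compared with its own DMSO libraries (2 DMSO and 2 ATRi libraries for ΔUNG, 2 and 1 for ΔUNG_2). Of the 1931 genes that rose in the control line 1814 had a positive fold change in ΔUNG and 1280 rose there; in ΔUNG_2 these counts were 1853 and 1395. Of the 1910 that fell, 1833 had a negative fold change in ΔUNG and 1335 fell, and in ΔUNG_2 1840 and 1322. The shared rises were 66.3% of those in the control line and 68.4% of the 1871 in ΔUNG, and 72.2% and 68.0% of the 2052 in ΔUNG_2. The shared falls were 69.9% of those in the control line and 61.3% of the 2179 in ΔUNG, and 69.2% and 67.7% of the 1952 in ΔUNG_2. A test of the difference in response itself passed for 2 genes in ΔUNG (0.0176% of those tested; 1538 at an unadjusted p under 0.05) and 8 in ΔUNG_2 (0.0706%; 1398 at an unadjusted p under 0.05). Both tests use the same control libraries. The 1871 rises and 2179 falls in ΔUNG are out of the same 11338 tested genes, as are those in ΔUNG_2. The signs of all tested genes in these lines were not counted, so the counts by sign have no background.

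Hap1, a huntingtin-associated transport protein, had 19.6 and 15.6 FPKM under DMSO and 36 and 34.7 FPKM under ATRi in the control line, a fold change of 1.00 ± 0.10, against -0.22 in ΔUNG and -0.17 in ΔUNG_2; the differences were -1.21 ± 0.14 (SE; adjusted p = 0.0433) and -1.17 ± 0.15 (adjusted p = 0.0378). Its level rose in the control line and in neither of the others. Mvd rose by 1.53 in the control line and by 0.40 in ΔUNG (difference -1.13 ± 0.12, adjusted p = 0.0433). Bst2, the antiviral tether tetherin, had 73.6 and 68.1 FPKM under DMSO and 196 and 214 FPKM under ATRi in the control line (1.52 ± 0.13) and a fold change of 0.01 in ΔUNG_2 (difference -1.52 ± 0.20, adjusted p = 0.0378). Rnf213, an interferon-induced ubiquitin ligase, rose by 1.21 in the control line (14.1 and 12.9 FPKM under DMSO and 33.5 and 30.5 FPKM under ATRi), with 0.08 in ΔUNG_2 (difference -1.13 ± 0.14). Each of these 4 genes responded more in the control line than in the lines given beside it. For Mvd the response in ΔUNG_2 was 1.22, and its difference from the control line (-0.31, adjusted p = 0.412) did not pass. Of the 8 differences in ΔUNG_2, 7 are described. The control line responded less for Dcxr, a xylulose reductase (1.69 against 2.61 in ΔUNG_2, difference 0.92 ± 0.12), Mcam, a melanoma adhesion molecule (1.08 against 1.85, difference 0.77 ± 0.09), and Dusp10, a phosphatase of stress kinases (0.40 against 1.61, difference 1.2 ± 0.15). The rise of Dusp10 in the control line was itself lost without DMSO replicate 2 (adjusted p = 0.0675) or ATRi replicate 2 (0.0569) and after scaling to an equal FPKM sum (0.183). Slfn9, a member of the Schlafen family with close relatives that may share its reads, did not pass in the control line (9.37 and 9.68 FPKM under DMSO and 9.56 and 8.14 FPKM under ATRi; -0.10, adjusted p = 0.421) and fell in ΔUNG_2 (-1.49; difference -1.39 ± 0.15). In ΔUNG, Bst2 and Rnf213 rose by 0.54 and 0.45, and Slfn9 fell (-1.18). Dusp10, Dcxr and Mcam rose there by 1.41, 2.40 and 1.52. For these genes the difference between ΔUNG and the control line had the same direction as in ΔUNG_2. It did not pass in ΔUNG (adjusted p = 0.0542 to 0.0879 by limma). The 7 differences in ΔUNG_2 had an adjusted p of 0.0378 by limma and rest on a single ATRi library. Each direction held in every fit that left out 1 library, but the calls did not: 2 of 8 such fits kept the calls of Hap1 and Mvd in ΔUNG, and in ΔUNG_2 no gene kept its call in more than 1 of 6.

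**Figure D5:**
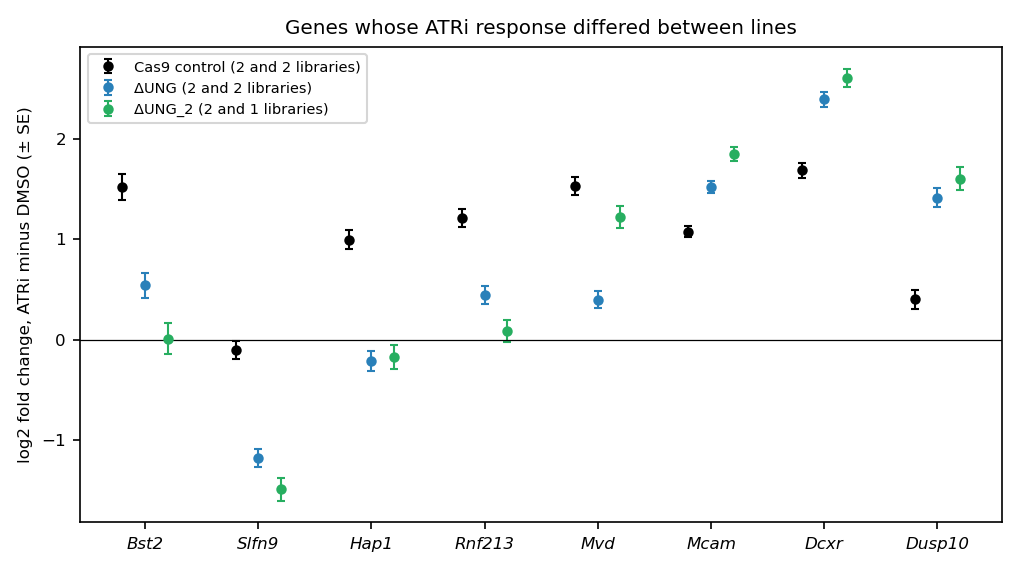
Log2 fold change (ATRi minus DMSO, with SE bars from the limma fit) of 8 genes whose response differed between the Cas9 control line and ΔUNG or ΔUNG_2. Bst2, Hap1 and Rnf213 lie higher in the control line than in both others, and Dcxr and Dusp10 lower.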

How the data were processed

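RNA of B16F10 cells was sent for library preparation and sequencing to Novogene, per the labels' protocols. HISAT2 is named in the submitters' processing notes without a version; for the counting tool, RNA selection, use of strand, annotation release and genome build nothing is stated in the sources. The authors deposited FPKM per gene and library, and read counts per library before and after their read filter, with base quality in percent. Positions of 14028 of the 14528 listed genes are those of GENCODE M21. For 19 genes a symbol turned into a date was restored by its gene ID. Each FPKM times gene length was a whole multiple of 1 fragment (100% of values within 0.01), so counted fragments could be recovered, which served only as alternatives.

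FPKM values were tested as log2(FPKM + 0.5) with limma 3.58.1 (R 4.3.3; empirical Bayes with intensity trend, two-sided, Benjamini-Hochberg adjusted p under 0.05) over all 11 libraries in 6 groups, with no replicate block. Adjusted p-values in the text are from this fit unless a setting is named. An FPKM is relative to its library, so a few very abundant or very short genes can shift all others, and FPKM per length assumes the deposited gene length. The alternatives were pseudocounts of 0.1 and 1, no filter or a filter at 2 FPKM, 3 rescalings, no intensity trend, the compared libraries alone, a replicate block, a test against a 1.2-fold change, each library left out, and voom, edgeR 4.0.16 and equal depth on the recovered fragments. In both Cas9 control groups the 2 libraries differed by more than counting noise (chi-square per degree of freedom 5.11 under DMSO and 27.7 under ATRi), so none was counted as a repeat.

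Gene lists and promoter motifs were chosen with earlier results of these data known, and list counts are read against the share of all tested genes. Genes named were drawn from a fixed panel, the largest protein-coding and noncoding changes without overlap, and in each role the tested members with the smallest and the largest adjusted p. Some genes that the rule names are not reported here. Named genes beyond that rule complete counts of 5 or fewer and were chosen after their values were seen. Promoter windows came from the RefSeq table (GRCm38.p6), matched by symbol or ID for 8542 of the 11338 tested genes. Python 3.11.15 and matplotlib 3.10.9 drew the figures. The labels do not say whether replicate numbers pair the libraries.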

Additional observations from a re-analysis of the deposited data

Results flagged for a closer look

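The 9 differences in ATRi response named in the comparison of lines are repeated here because the test of the difference between the Cas9 control line and an Ung knockout line passed. The response in ΔUNG was smaller than in the control line for Mvd and Hap1, with differences, ΔUNG minus control, of -1.13 and -1.21 on the log2 scale. The differences ΔUNG_2 minus control were -1.52 for Bst2, -1.17 for Hap1, -1.13 for Rnf213, -1.39 for Slfn9, 0.92 for Dcxr, 1.2 for Dusp10 and 0.77 for Mcam. Over the fits that left out 1 library the adjusted p ran from 0.00966 to 0.210 for Hap1 in ΔUNG and from 0.0672 to 0.231 for Bst2 in ΔUNG_2. The ΔUNG_2 values rest on 1 ATRi library, and both lines were set against the same control libraries.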

How the results depend on the processing

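Of the 3841 genes that passed, the count moved most with scaling, with the size of change tested and with the DMSO libraries. Scaling to an equal FPKM sum left 888 rises and 1149 falls (2037), and a test against a 1.2-fold change left 654 and 564 (1218). Leaving out 1 of the 4 libraries gave 2232 to 3020 genes in all, 1174 to 1543 rises and 1058 to 1567 falls. At least 2-fold, the rises numbered 202 with a filter at 2 FPKM, and the falls numbered 252 with a pseudocount of 0.1, 108 with a pseudocount of 1, 261 by voom and 255 by edgeR on fragments. edgeR called 2339 rises and 1989 falls. The other alternatives stayed within 1.5 times. Among them, an equal FPKM sum over genes of at least 200 bases gave 1616 rises and 2298 falls. Its factors for ATRi replicates 1 and 2 were 1.004 and 1.010. Those of the equal FPKM sum over all genes were 0.879 and 1.080. The causes were not tested.

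The differences between lines were the least stable counts. For ΔUNG they were 7 with a pseudocount of 0.1, 10 with 1, 0 with no filter, 24 with a filter at 2 FPKM, 16 with an equal FPKM sum, 0 by median ratios, 7 with no intensity trend, 0 with only the lines compared, 0 against a 1.2-fold change, 73 by voom, 86 by edgeR, 0 at equal depth and 0 to 6 with 1 library left out. For ΔUNG_2 they were 0 with no filter, 3 with no intensity trend, 2 with only the lines compared, 0 against a 1.2-fold change, 65 by voom, 86 by edgeR, 5 at equal depth and 0 to 10 with 1 library left out.

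With the replicate number as a block, 1857 genes rose and 1787 fell in the control line, and 4 and 0 genes differed in ΔUNG and ΔUNG_2. Same-numbered libraries of the control line did not deviate together over the genes (correlation -0.057). That value covers the control line alone and cannot tell whether the numbers pair the samples.

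Of the 150 named genes that passed, 130 kept their side and direction in every alternative run for them, 18 for most and 17 where a gene did not pass the filter at 2 FPKM. Signs changed, in no gene that had passed, for the medians of the melanocyte list (-0.028 with an equal FPKM sum, -0.014 with that sum over genes of at least 200 bases), of melanosome transport (-0.0044 with an equal sum), of mitochondrial ribosomal proteins (-0.075 to 0.012 with 1 library left out) and of nuclear complex I (-0.033 and -0.018 with the equal sums, -0.063 to 0.14 with 1 library left out), and for Slfn9 (-0.21 to 0.0054 with 1 library left out) and Ung (-0.0077 with an equal sum, -0.048 to 0.15 with 1 library left out, negative without DMSO replicate 2 at -0.037 and without ATRi replicate 2). Signs also changed for the medians of the respiratory chain (-0.063 without ATRi replicate 2, -0.066 with an equal sum), its complexes II to IV (-0.0089 without DMSO replicate 1, -0.11 without ATRi replicate 2, -0.023 with an equal sum), its complex V (0.072 without ATRi replicate 1) and its mitochondrially encoded subunits (0.016 without DMSO replicate 2, 0.065 without ATRi replicate 2). The same held for the ribosome list (-0.018 without ATRi replicate 2, -0.023 with an equal sum), its cytosolic proteins (-0.072 without ATRi replicate 2) and the BCL2 list (-0.046 with an equal sum). The equal sum over genes of at least 200 bases gave the sign of the equal sum in each list where the latter changed it but melanosome transport, and the vacuolar ATPase median changed sign by edgeR alone.

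With 2 libraries a group, absence of a call does not show that a gene was unchanged. Depth limits genes near 0.5 FPKM, and the DMSO libraries were the shallower ones.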
